A study of Mus musculus with 12 samples.

Results

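The 10 genes described here encode the SMADs that carry the TGF-β signal to the nucleus and proteins that damp it. They are Smad2, Smad3, Smad4, Smad7, Ski, Skil, Smurf1, Smurf2, Pmepa1 and Tgif1, and they were taken by gene symbol from the 23282 rows counted in each library. All 10 passed the filter on low counts, which left 12425 genes for testing. The lowest count of any of the 10 in any library was 137 reads, for Smad7.

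When TGF-β binds its receptors, the type I receptor phosphorylates SMAD2 and SMAD3, which join SMAD4, enter the nucleus and regulate target genes together with other transcription factors. Many of those targets feed back on the pathway. SMAD7 occupies the receptor and brings in SMURF ubiquitin ligases, PMEPA1 keeps receptor SMADs from the receptor, and SKI, SKIL (SnoN) and TGIF1 recruit repressor complexes to SMADs on DNA. In the lung, TGF-β acts on airway and alveolar epithelium as well as on fibroblasts and is a main driver of matrix deposition in fibrosis, the setting in which club cells, the secretory cells of the small airways, were studied here.

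RNA was measured in C22 cells, a cloned mouse club cell line from H-2Kb-tsA58 transgenic mice, which carry a temperature-sensitive viral T antigen under an interferon-inducible promoter and allow growth in culture until the cells are shifted to conditions for differentiation. The 12 libraries fell into 4 groups of 3: negative control cells (NC), NC cells given TGF-β1 at 20 ng/ml for 24 h (NC + TGF-β1), cells with siRNA knockdown of Pdcd5 (siPdcd5), and knockdown cells given the same TGF-β1 treatment (siPdcd5 + TGF-β1). All groups are the same line, differentiated and kept without serum for 2 h, and Pdcd5 encodes a small protein linked to programmed cell death that the study placed in TGF-β signalling. The labels do not say that replicates came from separate cultures, so that p-values measure the spread between these samples, which may be technical.

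Library totals ranged from 12809857 to 17714828 reads. A floor of 3 reads, set here and not the lowest count a library can hold, corresponds to 0.165 to 0.239 CPM, the count scaled to library size with TMM factors. Pdcd5 was at 65.1 to 73.5 CPM in the 6 libraries without knockdown and at 20.0 to 26.3 CPM in the 6 with it. An annotated pseudogene, Pdcd5-ps, exists in the genome, and reads with several alignments were counted. The Pdcd5 level is uncertain to that extent. Of 8 known response genes of TGF-β and of the related bone morphogenetic proteins (BMP), 7 were tested and all 7 passed the threshold after TGF-β1 in NC and in siPdcd5 cells, with Ctgf, Fn1, Col1a1 and Junb higher and Id1, Id2 and Id3 lower. The remaining gene, Tgfbi, had at most 5 reads in any library, with or without TGF-β1, and was not tested. The defining club cell markers were absent: Scgb1a1 had at most 1 read in any library, Scgb3a2 and Cyp2f2 had none, and 2 of 8 listed markers, Aldh1a1 and Aldh3a1, were above 3 reads in every library. Of 8 epithelial markers, Krt8, Krt18 and Foxa2 were present and Cdh1 was low (group means 2.12 to 3.18 CPM). Krt19 had at most 4 reads, and Epcam, Nkx2-1 and Cldn3 had at most 1 read. Alveolar type 2 markers summed to 21.45 to 29.4 CPM and endothelial and blood cell markers to 8.48 to 14.02 CPM. The first sum was mostly Abca3 (group means 20.3 to 25.5 CPM), while Sftpc had at most 2 reads and Sftpa1 none. The second was mostly Cd68 (group means 8.14 to 9.35 CPM). The label club cell is therefore used here as the name of the line only.

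Replicate 2 of NC + TGF-β1 stood apart from its group. Its log2 CPM correlated with those of replicates 1 and 3 at 0.979 and 0.974, against 0.989 between those 2. In siPdcd5, replicate 1 correlated with the others at 0.982 against 0.990 between them. The values of the members that passed the threshold, and of Tgif1 and Skil, are also given without these libraries.

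The sequences just upstream of the start sites are shown for 4 of the 10 genes, because they let the ubiquitin ligase that rose after TGF-β1 (Smurf1) be set beside its relative that did not pass the threshold in either comparison (Smurf2) and beside the corepressors Ski and Tgif1. They are the 250 bases before the annotated start (RefSeq, GRCm38.p6, written 5′ to 3′ on the strand of the gene), and 5 of the 10 genes had an entry there. The other 5, Pmepa1, Skil, Smad7, Smad2 and Smad4, had none, so that the genes with the largest rises could not be shown. Capitals mark CAGAC and the GC-rich motifs GGCGCC or else GGCCG, sequences that SMAD proteins are known to bind, on either strand, so that GTCTG marks the first and CGGCC marks the last when read on the other strand. GGCGCC reads the same on both strands, matches may share bases (CGGCCG holds GGCCG on each strand), and the palindrome GTCTAGAC was also searched. Only these exact strings are marked, so that the shorter GGCGC stays in lower case, and unmarked stretches are not free of related GC-rich sequences.

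Smurf1, chr5:144965831-144966080, minus strand: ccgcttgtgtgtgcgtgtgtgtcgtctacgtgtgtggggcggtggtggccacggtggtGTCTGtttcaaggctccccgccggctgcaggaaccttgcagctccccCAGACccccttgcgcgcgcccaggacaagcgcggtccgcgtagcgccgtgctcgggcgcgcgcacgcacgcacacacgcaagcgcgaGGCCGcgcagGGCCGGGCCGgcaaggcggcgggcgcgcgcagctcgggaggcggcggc

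Smurf2, chr11:106920716-106920965, minus strand: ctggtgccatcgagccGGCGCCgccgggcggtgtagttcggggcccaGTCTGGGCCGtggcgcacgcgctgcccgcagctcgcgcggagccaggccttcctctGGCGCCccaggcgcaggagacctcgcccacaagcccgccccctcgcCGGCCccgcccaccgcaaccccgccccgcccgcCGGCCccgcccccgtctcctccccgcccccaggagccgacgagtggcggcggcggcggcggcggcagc

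Ski, chr4:155222536-155222785, minus strand: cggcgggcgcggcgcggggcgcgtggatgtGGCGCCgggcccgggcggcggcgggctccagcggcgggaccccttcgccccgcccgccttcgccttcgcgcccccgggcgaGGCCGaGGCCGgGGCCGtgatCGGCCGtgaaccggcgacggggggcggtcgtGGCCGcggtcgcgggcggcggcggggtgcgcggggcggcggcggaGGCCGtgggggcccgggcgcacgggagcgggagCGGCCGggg

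Tgif1, chr17:70853533-70853782, minus strand, the first of its 5 annotated starts: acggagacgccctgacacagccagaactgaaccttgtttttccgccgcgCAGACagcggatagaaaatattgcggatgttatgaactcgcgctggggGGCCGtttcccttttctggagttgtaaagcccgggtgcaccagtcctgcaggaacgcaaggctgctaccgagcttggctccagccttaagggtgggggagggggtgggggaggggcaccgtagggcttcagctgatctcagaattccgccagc

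Smurf1 held CAGAC at 2 places, 192 and 145 bases before the start, and GGCCG at 3. Smurf2 held CAGAC at 1 place, GGCGCC at 2 and GGCCG at 3. Ski held GGCGCC at 1 place, GGCCG at 9 and CAGAC nowhere, in a stretch of 87.6% G and C. Tgif1, at the first of its 5 annotated starts, held CAGAC at 1 place, 201 bases before the start, and GGCCG at 1. The windows of its starts 2 to 5 held CAGAC at 2, 0, 1 and 0 places and GGCCG at 1, 2, 0 and 1. Which start C22 cells use was not measured. GTCTAGAC was in none of the 4 windows shown. Among all 32851 promoter windows of this length, 42.2% held CAGAC, 9.59% GGCGCC, 30.4% GGCCG and 0.167% GTCTAGAC, and the matches are given as a description of the letters only. The Smad3 window, also on the minus strand, held GGCCG at 1 place and none of the others.

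**Figure D1:**
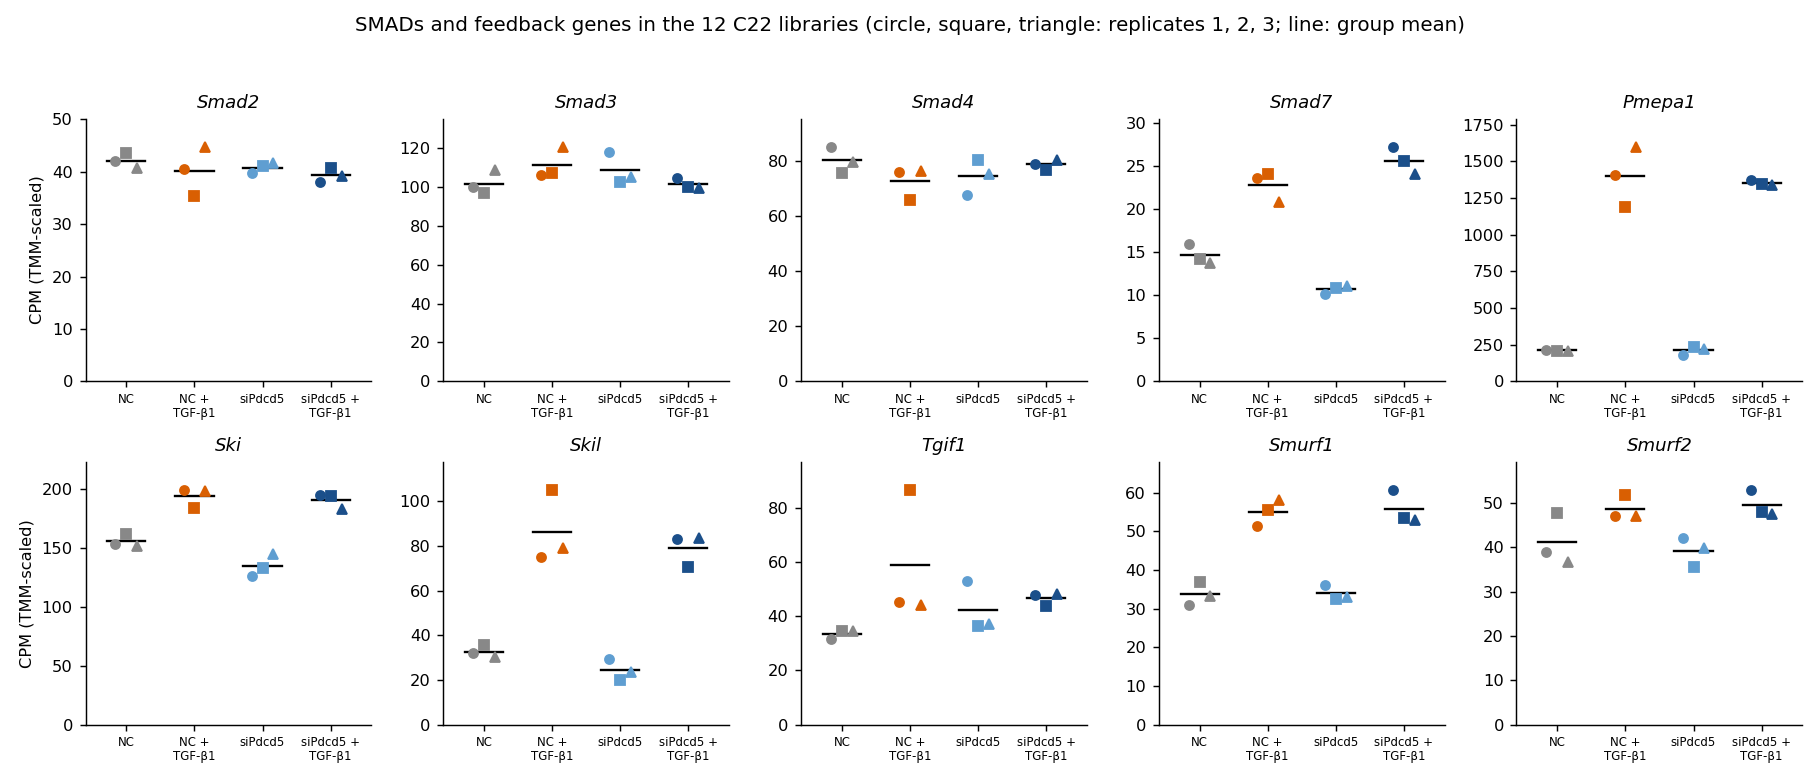
Level of each of the 10 genes (CPM on TMM-scaled library sizes, linear axes from 0) in the 12 libraries, with symbols for replicates 1 to 3 and a line at the group mean. Pmepa1 lay at 181 to 233 CPM without TGF-β1 and at 1188 to 1599 CPM with it, Smad2 stayed between 35.3 and 44.7 CPM in all groups, and Tgif1 reached 86.6 CPM in replicate 2 of NC + TGF-β1 alone.

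TGF-β1 in NC cells raised 6 of the 10 genes and lowered none. Genes past the threshold (adjusted p under 0.05 over all genes, edgeR quasi-likelihood test, Benjamini-Hochberg) were Pmepa1, Skil, Tgif1, Smurf1, Smad7 and Ski. In the same comparison 15.3% of all genes tested passed the threshold, and 8.57% of all genes tested passed it upward. The 10 genes had a median log2 fold change of 0.48, against 0.005 over all genes. In siPdcd5 cells TGF-β1 raised 5 of the 10, Pmepa1, Skil, Smad7, Smurf1 and Ski, with a median log2 fold change of 0.42 against −0.03 over all genes, where 16.1% of genes passed the threshold and 8.50% passed it upward. RNA came from whole cultures, so that fewer expressing cells and less RNA per cell cannot be told apart. The summed level of the club markers, which is almost only Aldh1a1 and Aldh3a1, went from 627 to 640.2 CPM in NC to 245.5 to 261.6 CPM in NC + TGF-β1, and that of 8 fibroblast markers from 1122 to 1215 CPM to 1501 to 1702 CPM, with 5 of the 8 above 3 reads everywhere and Lum at 1 read or none. The fibroblast sum is mostly Col3a1 (mean 1041 CPM in NC and 1493 CPM in NC + TGF-β1) and the list did not move as 1 group: of the 5 tested, Col3a1, Col1a2 and Pdgfrb rose, Dcn fell (log2 fold change −2.08, adjusted p = 6.47e-09 by edgeR) and Pdgfra had −0.35 (adjusted p = 0.241). In knockdown cells the club sum went from 383.3 to 431.9 CPM to 172.5 to 182.1 CPM and the fibroblast sum from 867.2 to 991.1 CPM to 1168 to 1343 CPM, again mostly Col3a1 (mean 729 to 1144 CPM), which rose with Col1a2 while Dcn fell (−1.80, adjusted p = 1.92e-08) and Pdgfra had −0.51 (adjusted p = 0.0818). The part of these shifts in the results was not tested.

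The SMADs that transmit the signal did not pass the threshold in any comparison. Smad2 (chromosome 18), a receptor-regulated SMAD, was at 42.1, 43.5 and 40.7 CPM in NC replicates 1 to 3, at 40.5, 35.3 and 44.7 CPM in NC + TGF-β1, at 39.7, 41.1 and 41.6 CPM in siPdcd5 and at 38.0, 40.7 and 39.2 CPM in siPdcd5 + TGF-β1. The groups overlapped in each of the 4 pairwise comparisons. Its log2 fold change after TGF-β1 was −0.07 in NC cells (95% confidence interval −0.28 to 0.14) and −0.05 in siPdcd5 cells (−0.27 to 0.16).

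Smad3 (chromosome 9, 63646767 to 63757994, minus strand, GRCm38), the receptor-regulated SMAD that binds DNA directly, was at 99.7, 96.6 and 109 CPM in NC, 106, 107 and 121 CPM in NC + TGF-β1, 118, 103 and 105 CPM in siPdcd5 and 104, 99.8 and 99.4 CPM in siPdcd5 + TGF-β1. Every siPdcd5 + TGF-β1 library lay below every NC + TGF-β1 library, by as little as 106 against 104 CPM. The fitted difference was −0.14 on the log2 scale (interval −0.33 to 0.06) with an adjusted p of 0.552 by edgeR's test. After TGF-β1 the log2 fold change was 0.13 in NC cells (adjusted p = 0.387) and −0.10 in siPdcd5 cells (adjusted p = 0.509), both from the same test.

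Smad4 (chromosome 18), the partner shared by the TGF-β and BMP branches, was at 85.2, 75.9 and 79.8 CPM in NC, 76.3, 65.8 and 76.5 CPM in NC + TGF-β1, 67.8, 80.5 and 75.5 CPM in siPdcd5 and 79.2, 77.0 and 80.5 CPM in siPdcd5 + TGF-β1. The siPdcd5 + TGF-β1 libraries all lay above the NC + TGF-β1 libraries, with 77.0 against 76.5 CPM at the nearest. The log2 difference was 0.12 (interval −0.09 to 0.32, adjusted p = 0.652 by edgeR). For all 3 of these SMADs the 95% intervals of the TGF-β1 effect in both backgrounds stayed within −0.35 and 0.32 on the log2 scale.

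Pmepa1 changed most of the 10. It encodes a membrane protein that binds receptor SMADs and lies on chromosome 2 (173224458 to 173276533, minus strand). Its level was 216, 208 and 211 CPM in NC and 1405, 1188 and 1599 CPM in NC + TGF-β1, a 6.61-fold rise (log2 fold change 2.72, standard error (SE) 0.12, adjusted p = 3.64e-09). By log2 fold change this was the 44th largest rise of the 12425 genes. In siPdcd5 it was at 181, 233 and 223 CPM, and in siPdcd5 + TGF-β1 at 1373, 1349 and 1337 CPM, a 6.37-fold rise (log2 fold change 2.67, SE 0.12, adjusted p = 6.1e-09). The mean went from 212 ± 3.68 to 1398 ± 205 CPM in NC cells and from 212 ± 27.3 to 1353 ± 18.4 CPM in knockdown cells (SD, n = 3). After knockdown the difference was 0.01 without TGF-β1 (interval −0.24 to 0.25) and −0.05 with it (−0.29 to 0.19) on the log2 scale.

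Smad7 (chromosome 18), the inhibitory SMAD of the TGF-β branch, rose after TGF-β1 in both backgrounds. It was at 15.9, 14.2 and 13.7 CPM in NC and at 23.6, 24.1 and 20.8 CPM in NC + TGF-β1, a 1.56-fold rise (log2 fold change 0.64, SE 0.11, adjusted p = 0.00118). It was at 10.1, 10.9 and 11 CPM in siPdcd5 and at 27.2, 25.5 and 24.0 CPM in siPdcd5 + TGF-β1, a 2.40-fold rise (log2 fold change 1.26, SE 0.12, adjusted p = 3.0e-06). Ordered by mean, the groups ran from siPdcd5 (10.7 ± 0.481 CPM) through NC (14.6 ± 1.13) and NC + TGF-β1 (22.8 ± 1.78) to siPdcd5 + TGF-β1 (25.6 ± 1.59, SD, n = 3 each). The ranges of the last pair touched, at 24.1 and 24.0 CPM, and their difference was 0.17 on the log2 scale (interval −0.07 to 0.40, adjusted p = 0.560 by edgeR).

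Ski (chromosome 4, 155154075 to 155222592, minus strand), a corepressor that binds SMAD3 and SMAD4, was at 154, 162 and 152 CPM in NC and 199, 184 and 199 CPM in NC + TGF-β1. The rise was small, 1.25-fold (log2 fold change 0.32, SE 0.08, adjusted p = 0.0147), and the groups did not overlap. In siPdcd5 it was at 127, 133 and 145 CPM and in siPdcd5 + TGF-β1 at 195, 194 and 183 CPM, a 1.41-fold rise (log2 fold change 0.50, SE 0.08, adjusted p = 5.8e-04). The call in NC cells was lost without NC replicate 1, NC replicate 3 or NC + TGF-β1 replicate 1, with adjusted p of 0.0613, 0.0744 and 0.0586, and with no filter on low counts (0.0538) or only the libraries compared (0.0607).

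Skil (chromosome 3, 31095058 to 31122577, plus strand) encodes SnoN, the relative of SKI that is degraded when the pathway is switched on and then made again as its target. It was at 32.2, 35.8 and 30.1 CPM in NC and at 75, 105 and 79.2 CPM in NC + TGF-β1, a 2.64-fold rise (log2 fold change 1.40, SE 0.16, adjusted p = 1.73e-05). The highest of these was replicate 2, the library that stood apart, and without it the log2 fold change was 1.24 (adjusted p = 3.95e-06). In siPdcd5 it was at 29.5, 19.8 and 23.7 CPM and in siPdcd5 + TGF-β1 at 83.3, 70.4 and 83.6 CPM, a 3.26-fold rise (log2 fold change 1.70, SE 0.16, adjusted p = 3.39e-06). All adjusted p here are from edgeR's quasi-likelihood test.

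Tgif1 (chromosome 17, 70844205 to 70853546, minus strand), a homeobox corepressor, passed the threshold in NC cells and not in siPdcd5 cells. It was at 31.6, 34.4 and 34.4 CPM in NC and at 45.5, 86.6 and 44.2 CPM in NC + TGF-β1, a 1.76-fold rise (log2 fold change 0.81, SE 0.22, adjusted p = 0.0204). All 3 treated libraries lay above the NC libraries, and replicate 2 was far above the others. Without replicate 2 the log2 fold change was 0.42 (adjusted p = 0.0438), and without NC replicate 1, 2 or 3 the call was lost (adjusted p = 0.0807, 0.0633 and 0.0666), as it was with only the libraries compared (0.0542). In that same library Ctgf was at 410 CPM, against 140 and 204 CPM in its group, and Krt18 at 807 CPM, against 1116 and 1151 CPM. Their part in the Tgif1 value was not tested.

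In siPdcd5 cells Tgif1 was at 53.2, 36.3 and 37.0 CPM and after TGF-β1 at 47.9, 43.7 and 48.4 CPM. The untreated replicate 1, which also stood apart, lay above all treated libraries, and the log2 fold change was 0.15 (SE 0.22, adjusted p = 0.703). Without that replicate it was 0.35 (adjusted p = 0.353). An annotated processed copy, Tgif1-ps, exists in the genome, and because reads with several alignments were counted, the Tgif1 level is uncertain to that extent.

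The SMURF ubiquitin ligases, which mark SMADs and receptors for degradation, were measured side by side. Smurf1 (chromosome 5, 144876495 to 144965847, minus strand) was at 30.9, 37.0 and 33.3 CPM in NC and 51.4, 55.6 and 58.2 CPM in NC + TGF-β1, a 1.63-fold rise (log2 fold change 0.71, SE 0.10, adjusted p = 2.07e-04). In siPdcd5 it was at 36.2, 32.5 and 33.1 CPM and in siPdcd5 + TGF-β1 at 60.7, 53.5 and 52.8 CPM, a 1.64-fold rise (log2 fold change 0.71, SE 0.10, adjusted p = 2.0e-04). The log2 fold changes in the 2 backgrounds differed by 0.01 (interval −0.30 to 0.32).

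Smurf2 (chromosome 11, 106820066 to 106920715, minus strand) was at 38.9, 47.6 and 36.8 CPM in NC and 47.0, 51.9 and 47.0 CPM in NC + TGF-β1. These ranges overlapped, with a log2 fold change of 0.24 (SE 0.11, adjusted p = 0.185). It was at 42.1, 35.5 and 39.7 CPM in siPdcd5 and 52.9, 48.0 and 47.4 CPM in siPdcd5 + TGF-β1, without overlap, and the log2 fold change of 0.34 (SE 0.11, adjusted p = 0.0557) did not pass the threshold by edgeR. It passed under 4 of 13 other settings, DESeq2 among them (adjusted p = 0.0256).

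**Figure D2:**
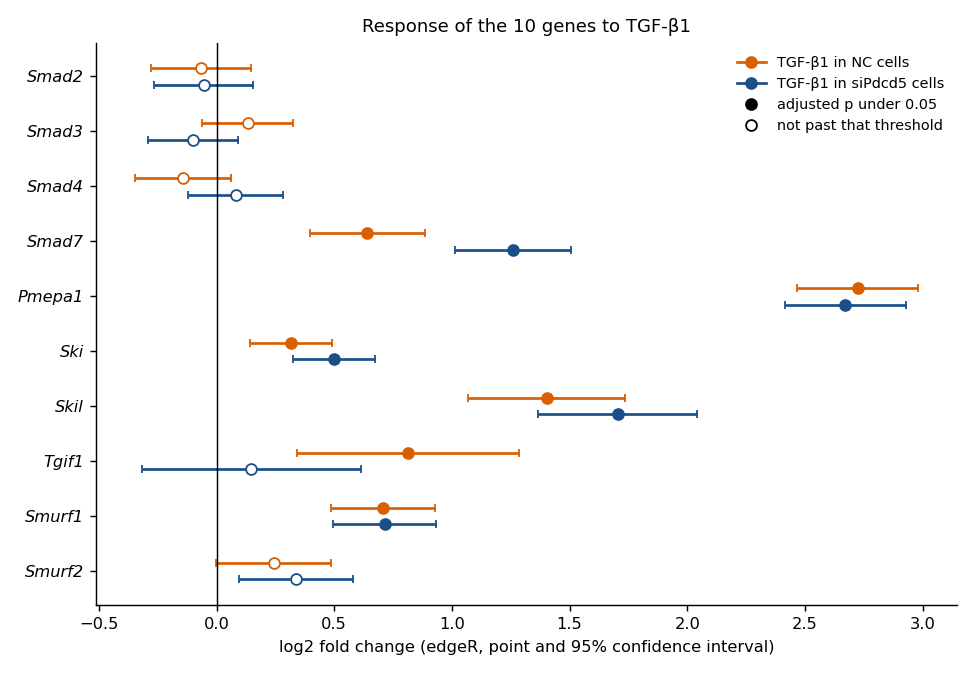
Log2 fold change after TGF-β1 (x axis, edgeR, point and 95% confidence interval) for each of the 10 genes in NC cells and in siPdcd5 cells, filled where the adjusted p is under 0.05. Pmepa1 is farthest to the right at 2.72 and 2.67, Smad2, Smad3 and Smad4 straddle 0, and the intervals of Smad7 are 0.40 to 0.88 in NC and 1.01 to 1.51 in siPdcd5 cells.

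In each TGF-β1 comparison 6 of the 10 genes had libraries without overlap between the groups, against 29.6% of all genes in NC and 36.1% in siPdcd5 cells. In NC cells these were the 6 genes past the threshold, and in siPdcd5 cells the 5 past it and Smurf2. Pmepa1, Skil, Smad7 and Smurf1 passed the threshold in both comparisons under all 13 other settings, which include leaving out each library of the comparison. Without replicate 2 of NC + TGF-β1 the log2 fold changes in NC cells were 2.83 for Pmepa1, 0.60 for Smad7, 0.35 for Ski and 0.70 for Smurf1, and all 6 genes passed the threshold. Without replicate 1 of siPdcd5 those in knockdown cells were 2.58 for Pmepa1, 1.87 for Skil, 1.23 for Smad7, 0.46 for Ski and 0.77 for Smurf1, and these 5 passed it along with Smurf2 (0.40, adjusted p = 0.0453 by edgeR).

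Knockdown of Pdcd5 without TGF-β1 lowered 1 of the 10 genes, Smad7. Over all genes 3.44% passed the threshold in this comparison, 2.54% downward. Smad7 was at 13.7 to 15.9 CPM in NC and at 10.1 to 11 CPM in siPdcd5, without overlap, −0.45 on the log2 scale (SE 0.12, interval −0.71 to −0.20, adjusted p = 0.0492). That value lies just inside the threshold. The call held in 3 of 13 other settings, with adjusted p from 0.0165 to 0.194 and log2 fold changes from −0.50 to −0.39, and it was lost without any 1 of the 6 libraries (−0.42, adjusted p = 0.136, without siPdcd5 replicate 1).

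The corepressors Ski and Skil were also lower in every siPdcd5 library than in every NC library. Ski was at 127 to 145 against 152 to 162 CPM (log2 fold change −0.21, SE 0.08, adjusted p = 0.222) and Skil at 19.8 to 29.5 against 30.1 to 35.8 CPM (−0.43, SE 0.16, adjusted p = 0.187). Neither passed the threshold, and without siPdcd5 replicate 1 the values were −0.17 for Ski (adjusted p = 0.419) and −0.59 for Skil (adjusted p = 0.0697). Tgif1 lay the other way, at 36.3 to 53.2 against 31.6 to 34.4 CPM (0.33, SE 0.22, adjusted p = 0.525, all by edgeR), and without siPdcd5 replicate 1 its log2 fold change was 0.13. With Smad7, 4 of the 10 genes had no overlap, against 23.1% of all genes. Both marker sums given above were lower in siPdcd5 than in NC, but not all of their genes were. Of the fibroblast list Col3a1 fell (−0.52, adjusted p = 0.00558) while Col1a2 (1.74, adjusted p = 6.33e-04) and Dcn (0.59, adjusted p = 0.00234) rose, and of the club list Aldh1a1 fell (−0.86, adjusted p = 2.68e-05) while Aldh3a1 had 0.27 (adjusted p = 0.264, all by edgeR). Their part in the differences of Smad7, Ski and Skil was not tested. The other 6 differed by at most 0.11 on the log2 scale in either direction.

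In TGF-β1-treated cells none of the 10 passed the threshold after knockdown, by edgeR or by DESeq2, and 0 had an unadjusted p under 0.05 by edgeR. Over all genes 1.55% passed. The median log2 difference of the 10 was −0.03, against −0.02 over all genes, and 2 of the 10, Smad3 (lower) and Smad4 (higher), had libraries without overlap, against 18.9% of all genes. The widest differences were −0.33 for Tgif1 (interval −0.80 to 0.13) and 0.17 for Smad7. Without NC + TGF-β1 replicate 2 the Tgif1 value was 0.06, and that of Skil went from −0.13 to 0.04.

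**Figure D3:**
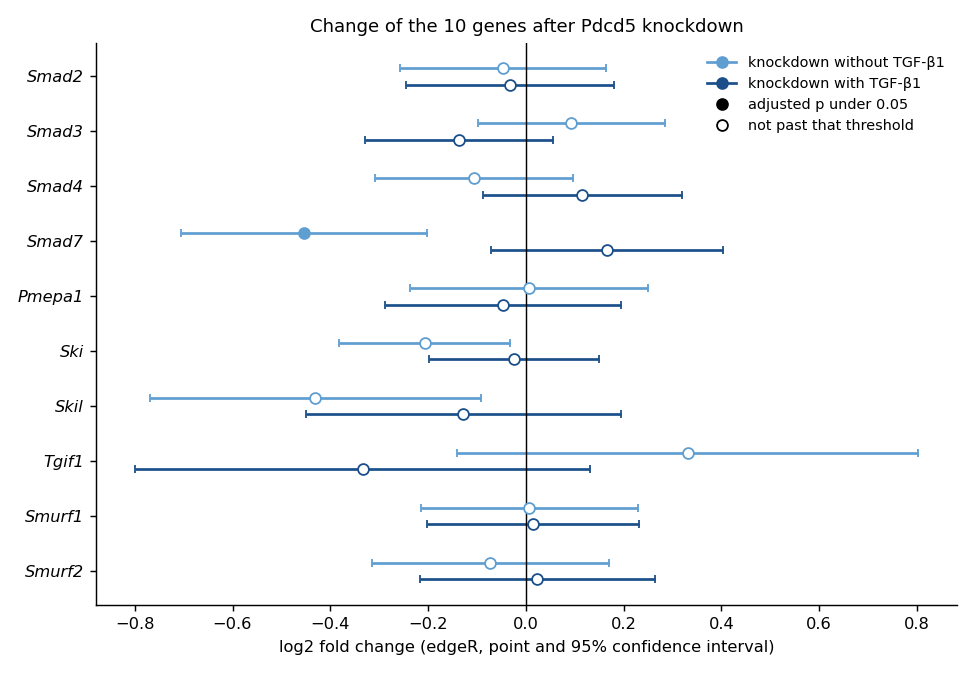
Log2 fold change after Pdcd5 knockdown (x axis, edgeR, point and 95% confidence interval) for each of the 10 genes without and with TGF-β1, filled where the adjusted p is under 0.05. The single filled point is Smad7 without TGF-β1 at −0.45, and with TGF-β1 all 10 intervals include 0.

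Whether the response to TGF-β1 differed between NC and siPdcd5 cells was tested by the interaction of treatment and knockdown. No gene of the 12425 passed the threshold by edgeR (0%), and 15 passed by DESeq2, none of them among the 10. By edgeR 638 of the 12425 had an unadjusted p under 0.05, about the share that this cut passes when no response differs. Smad7 had the largest positive value of the 10, 0.62 on the log2 scale (SE 0.16, interval 0.27 to 0.97), which places it 28th of 12425 genes by unadjusted p (0.00178, adjusted p = 0.736). Its range over 18 other settings was 0.55 to 0.68, with adjusted p of 0.211 at the lowest. The untreated siPdcd5 libraries enter both this value and the fall of Smad7 after knockdown. Tgif1 had −0.66 (SE 0.31, unadjusted p = 0.0494, adjusted p = 0.951 by edgeR's quasi-likelihood test), and −0.27 without NC + TGF-β1 replicate 2. The other 8 lay between −0.23 for Smad3 and 0.30 for Skil. The Skil value was 0.47 without NC + TGF-β1 replicate 2 (adjusted p = 0.615) and 0.48 without siPdcd5 replicate 1 (adjusted p = 0.999), by the same test.

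Of 56 other genes of the pathway, in 6 lists, 52 were tested. TGF-β1 in NC cells changed 11 of them, 5 upward and 6 downward, with a median log2 fold change over the 52 of 0.00067. In siPdcd5 cells 12 changed, 5 upward and 7 downward. The first count was 7 without NC replicate 2, and the second was 7 without siPdcd5 + TGF-β1 replicate 1 or replicate 2. These shares stand beside the 15.3% and 16.1% of all genes given above.

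Among the other SMADs, Smad6, the inhibitory SMAD of the BMP branch, moved against Smad7. It fell after TGF-β1 from 15.4, 18.2 and 16.6 CPM to 6.37, 7.25 and 7.02 CPM in NC cells (log2 fold change −1.28, SE 0.14, adjusted p = 1.28e-05). In siPdcd5 cells it fell from 10.7, 11.2 and 9.72 CPM to 7.85, 6.63 and 6.92 CPM (−0.56, SE 0.14, adjusted p = 0.0118). Like Smad7 it was lower after knockdown without TGF-β1 (−0.67, SE 0.13, adjusted p = 0.0122), and the interaction was 0.72 (unadjusted p = 0.00238, adjusted p = 0.736). Smad9, a BMP receptor SMAD with 18 to 25 reads in NC and 4 to 7 in NC + TGF-β1, fell by 2.04 on the log2 scale (adjusted p = 0.00492) and in siPdcd5 cells by 1.54 (adjusted p = 0.0171). Smad5, another BMP receptor SMAD, rose in NC cells (0.27, adjusted p = 0.0382), with 0.08 in siPdcd5 cells (adjusted p = 0.593 by edgeR). Smad1 did not pass in any comparison.

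Ldlrad4, the relative of Pmepa1 that also binds receptor SMADs, rose with it. It was at 7.83, 8.08 and 7.83 CPM in NC and at 32.6, 32.6 and 33.2 CPM in NC + TGF-β1, a 4.14-fold rise (log2 fold change 2.05, SE 0.12, adjusted p = 5.63e-08). In siPdcd5 cells it went from 8.41, 7.33 and 7.98 CPM to 26.0, 24.5 and 31.3 CPM (1.79, SE 0.12, adjusted p = 1.83e-07). After knockdown with TGF-β1 its libraries lay below those of NC + TGF-β1 (−0.27, adjusted p = 0.306), without passing the threshold.

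**Figure D4:**
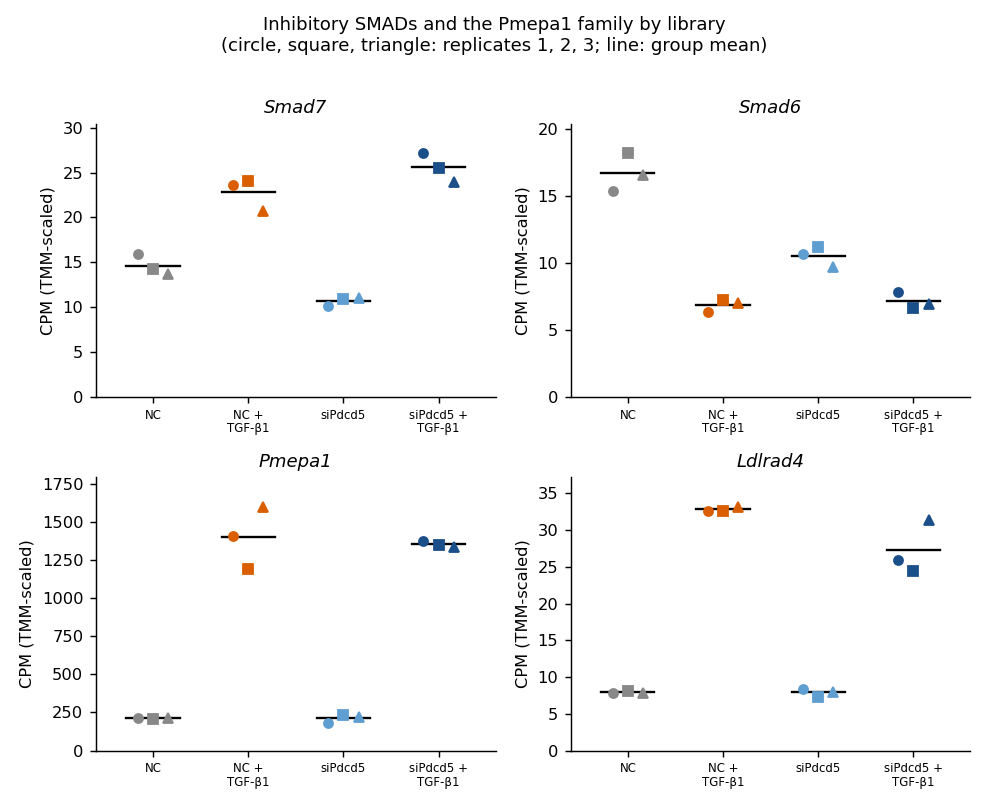
Levels (CPM on TMM-scaled library sizes, linear axes from 0) of the inhibitory SMADs Smad7 and Smad6 and of Pmepa1 and its relative Ldlrad4 in the 12 libraries, with symbols for replicates 1 to 3 and a line at the group mean. Smad7 is higher and Smad6 lower with TGF-β1 in both backgrounds, and both are lowest among untreated groups in siPdcd5, at 10.1 to 11 and 9.72 to 11.2 CPM.

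Of 9 other negative regulators, Fkbp1a, whose product keeps the type I receptor inactive, rose in NC cells (0.44, adjusted p = 0.0151) and in siPdcd5 cells (0.49, adjusted p = 0.00762). Sik1, a kinase that acts with SMAD7 on the receptor, passed the threshold in siPdcd5 cells (−0.72, adjusted p = 0.037), with −0.56 in NC cells (adjusted p = 0.113). Eid2, an inhibitor of SMAD-dependent transcription, did not pass after TGF-β1 but fell after knockdown, from 69 to 87 reads in NC to 13 to 30 reads in siPdcd5 (log2 fold change −2.0, SE 0.29, adjusted p = 0.00168) and by 1.58 on the log2 scale with TGF-β1 (adjusted p = 0.0113). Smad6 and Eid2 were the only genes of the 52 past the threshold after knockdown without TGF-β1, and Eid2 the only one with it. These counts, 2 and 1 of the 52, stand beside 3.44% and 1.55% of all genes in the same comparisons.

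Among 12 other ubiquitin ligases and deubiquitinases, Nedd4l, a ligase of the same family as the SMURFs that acts on activated SMAD2 and SMAD3, fell in NC cells (−0.59, SE 0.11, adjusted p = 0.00119) and in siPdcd5 cells (−0.62, adjusted p = 8.58e-04). The deubiquitinase Usp9x (0.43, adjusted p = 0.0345) and the ligase Rlim (0.31, adjusted p = 0.0225) passed upward in siPdcd5 cells, with 0.30 and −0.01 in NC cells. Among ligands and receptors, Tgfb3 fell from 51.9 to 57.4 CPM in NC to 25.1 to 33.5 CPM in NC + TGF-β1 (−0.97, SE 0.12, adjusted p = 5.63e-05) and by 1.04 on the log2 scale in siPdcd5 cells (adjusted p = 3.24e-05). The receptors Tgfbr1 and Tgfbr2 did not pass in any of these comparisons.

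Of 10 anchors and transport factors, 9 were tested and 1 passed. Dab2, an endocytic adaptor that links receptors to SMADs, fell from 533 to 554 CPM in NC to 200 to 227 CPM in NC + TGF-β1 (−1.37, SE 0.08, adjusted p = 5.88e-08) and by 1.39 on the log2 scale in siPdcd5 cells (adjusted p = 5.32e-08). Of 13 cofactors, 12 were tested. Runx1, a transcription factor that cooperates with SMADs, rose from 28.8 to 34.1 CPM in NC to 88.6 to 121 CPM in NC + TGF-β1 (1.67, SE 0.15, adjusted p = 2.87e-06) and by 1.61 on the log2 scale in siPdcd5 cells (adjusted p = 4.55e-06). Kat2b, a histone acetyltransferase, fell in both (−0.52 and −0.46, adjusted p = 0.0221 and 0.0415). Foxo1 passed upward in NC cells (0.35, adjusted p = 0.0264), with 0.25 in siPdcd5 cells (adjusted p = 0.115). All of these are from edgeR's quasi-likelihood fit over the 12425 genes.

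**Figure D5:**
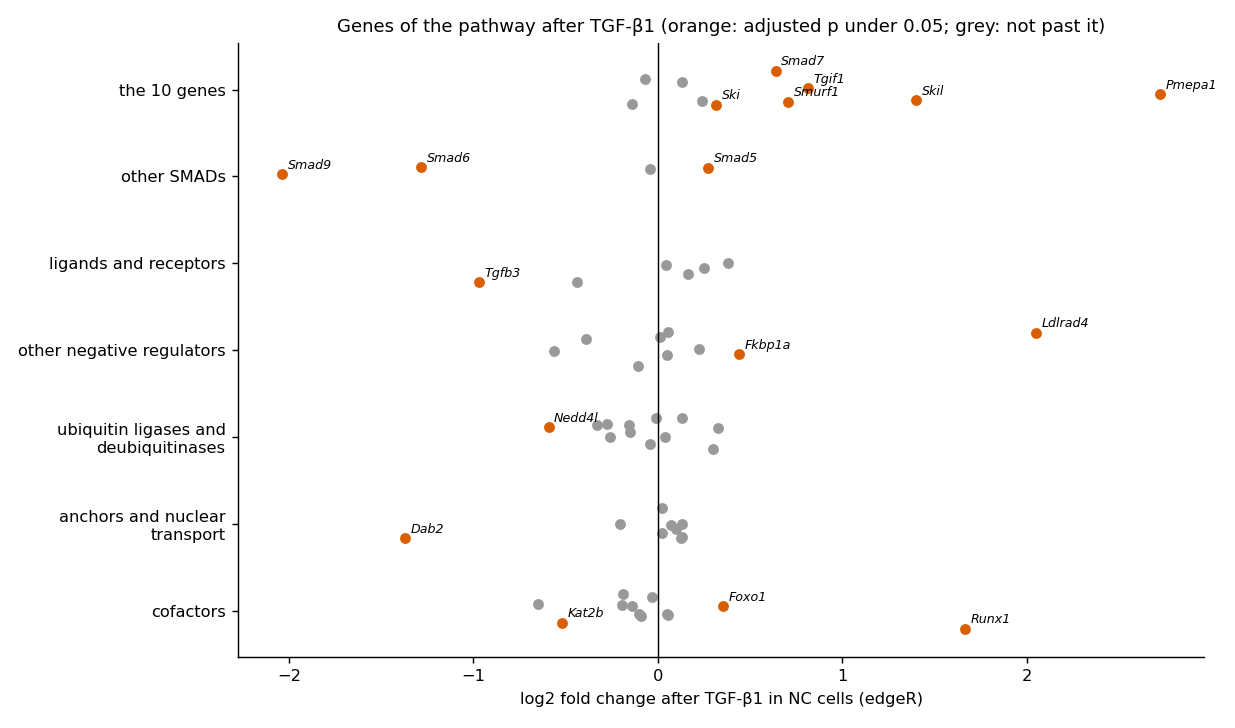
Log2 fold change after TGF-β1 in NC cells (x axis, edgeR) of the 10 genes and of the 52 other tested pathway genes by list (rows, points spread vertically for legibility), coloured where the adjusted p is under 0.05. Among the 10 genes all 6 coloured points lie to the right of 0, while the other lists hold 5 to the right, led by Ldlrad4 at 2.05, and 6 to the left, led by Smad9 at −2.04.

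The genes whose pattern over the 12 libraries was most like that of the 3 members with the smallest adjusted p after TGF-β1 in NC cells were found among 9118 genes averaging 3 or more on the log2 CPM scale. For Pmepa1 they were Tnnt2 (Pearson r = 0.998), Lamb3 (0.995) and Vcan (0.993), which encode a troponin, a laminin chain and a matrix proteoglycan. For Skil they were Pdgfa (0.989), Ankrd1 (0.988) and Tpm4 (0.987), and for Smurf1 Tnfrsf23 (0.981), Gadd45a (0.977) and Dpysl3 (0.976). Among the 10 themselves, r with Pmepa1 was 0.964 for Smurf1, 0.937 for Skil, 0.924 for Smad7 and 0.921 for Ski, 0.773 for Smurf2 and 0.549 for Tgif1, and between −0.31 and 0.09 for Smad2, Smad3 and Smad4. The treated and untreated libraries form separate clusters in these values, and r is given as a description without a test.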

How the data were processed

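QuantSeq 3′ libraries were prepared by the authors from 12 C22 samples and sequenced as single-end reads. Per the study's methods, reads were aligned with Bowtie2 and unique and multiple alignments were counted with Bedtools; the submitters' notes name mm10, and the use of strand is not given in the sources used here. The authors deposited whole read counts per gene symbol, not normalized, in 23282 rows, of which 44 repeat 35 symbols and 5134 have no count.

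Counts were analysed with R 4.3.3 and edgeR 4.0.16 (filterByExpr, TMM factors, quasi-likelihood F test), in a single model of 4 groups over 12425 genes, with Benjamini-Hochberg adjustment over all of them and a threshold of 0.05. The fit was tested on simulated data. Correlations used a prior count of 2. Confidence intervals are at 95%. Floors of 3 counts cover counting error only. Samples were grouped by their labels. Alternatives were upper-quartile and RLE factors, no filter, quantile normalization with limma 3.58.1 (limma-trend), DESeq2 1.42.0, only the libraries compared, a replicate block and each library left out in turn.

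The 10 genes and all gene lists were chosen with earlier results of these data known. Named are the 10 genes in every comparison, up to 3 genes past the threshold with the largest changes per list and comparison, and 3 genes most like each of 3 members; Krt18 and the genes named only for lying at or near 0, or for not passing the threshold, were added after their values were seen. Gene positions are from GENCODE vM21 (GRCm38), promoters from RefSeq.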

Additional observations from a re-analysis of the deposited data

How the results depend on the processing

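Over 700 re-computed values of single genes, 639 kept their direction and side of the threshold, 19 lost the threshold, 4 gained it and 38 changed sign, all of them in genes that had not passed it. No other scaling moved the median log2 fold change of all genes by over 0.1. The 1 member past the threshold after knockdown without TGF-β1 (Smad7) became 0 with upper-quartile factors, no filter on low counts, the replicate block or only the libraries compared, and with any 1 of its 6 libraries left out (0 to 0). For other pathway genes, knockdown with TGF-β1 gave 2 with DESeq2 (Wald test), 0 with only the libraries compared and 0 to 2 without 1 library; knockdown without TGF-β1 gave 1 to 2, the fewest without NC replicate 2 or siPdcd5 replicate 3; TGF-β1 gave 7 to 13 in NC cells (7 without NC replicate 2) and 7 to 9 in siPdcd5 cells (7 without siPdcd5 + TGF-β1 replicate 1 or 2). The main fit gave 11 other pathway genes after TGF-β1 in NC cells and 12 in siPdcd5 cells. The cause of these differences was not tested.

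Signs changed near 0. After knockdown without TGF-β1, Smurf1 had −0.0029, −0.0050, −0.012 and −0.0038 with RLE factors, no filter, quantile normalization and DESeq2, and Pmepa1 −0.0041, −0.0054 and −0.0040 with RLE factors, no filter and DESeq2. Leaving out 1 library gave −0.053 to 0.079 for Smurf1, −0.15 to 0.046 for Smurf2 and −0.065 to 0.10 for Pmepa1. After knockdown with TGF-β1, quantile normalization gave 0.0080 for Ski and 0.031 for Pmepa1, and leaving out 1 library gave −0.12 to 0.049 for Smad2, −0.059 to 0.0069 for Ski, −0.22 to 0.038 for Skil, −0.051 to 0.052 for Smurf1, −0.028 to 0.073 for Smurf2, −0.15 to 0.058 for Pmepa1 and −0.51 to 0.058 for Tgif1. For Smad2 after TGF-β1 in NC cells it gave −0.15 to 0.018. For the interaction it gave −0.072 to 0.093 for Smad2, −0.063 to 0.071 for Smurf1, −0.022 to 0.19 for Smurf2 and −0.16 to 0.049 for Pmepa1.

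Same-numbered libraries did not all deviate together (in no comparison was every pair's correlation over 0.1). For TGF-β1 in NC cells the mean correlation was 0.113 for same-numbered and −0.0569 for other pairs. For knockdown with TGF-β1 these were −0.14 and 0.0679. With 3 libraries per group this cannot decide whether same-numbered libraries belong together, and the numbers are used here only to name them. The replicate block gave 6 members past the threshold after TGF-β1 in NC cells and 5 in siPdcd5 cells, and took calls over all genes from 1906 to 1687, 2002 to 1731, 427 to 301 and 192 to 107 in the TGF-β1 comparisons in NC and siPdcd5 cells and the knockdown comparisons without and with TGF-β1. Without NC + TGF-β1 replicate 2, calls over all genes rose to 2554 after TGF-β1 in NC cells and to 322 after knockdown with TGF-β1. The latter count of 192 was 458 with DESeq2, 44 with only the libraries compared, 111 and 121 without NC + TGF-β1 replicates 1 and 3, and 87, 81 and 73 without siPdcd5 + TGF-β1 replicates 1, 2 and 3. The 427 calls after knockdown without TGF-β1 were 714 with DESeq2 and 235, 167, 206, 309, 324 and 210 without NC replicates 1, 2 and 3 and siPdcd5 replicates 1, 2 and 3. Depth limits Smad7 most, with 137 to 197 reads in siPdcd5.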
